A study of Mus musculus with 8 samples.

Results

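The genes described here are 10 members of the ETS family of transcription factors, many of which act downstream of ERK. They are Etv1, Etv4 and Etv5 (PEA3 group), Elk1, Elk3 and Elk4 (ternary complex factors), Ets1 and Ets2 (ETS group), and Elf3 and Ehf (epithelial). They were taken by symbol from a table of 34478 genes, and all 10 were found in it. RNA had been sequenced from 4 primary murine cell lines of pancreatic ductal adenocarcinoma (PDAC), #1, #3, #5 and #10, each with DMSO (the solvent control) and after 48 h with trametinib, an inhibitor of the kinase MEK (MEKi). The lines come from tumours of a genetically engineered mouse model with the alleles Ptf1awt/Cre and Trp53loxP/loxP, in which Cre expressed from the Ptf1a locus of pancreatic progenitors deletes Trp53, and all 8 libraries, controls as well as treated cells, share this genotype. Each line was treated at its own IC50, so the dose can differ between lines, and each line gave 1 library per treatment. The age of the mice and the doses are not given in the sources used here, and nothing states that a line was split into independent cultures, so the spread between libraries is a spread between lines.

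ETS factors share a DNA-binding domain that recognises sites with the core GGAA, and many of them are read-outs of MAPK signalling. ERK phosphorylates the ternary complex factors, which sit with serum response factor (SRF) on the promoters of immediate early genes such as Egr1 and Fos, and it phosphorylates Ets1 and Ets2, which share sites with AP-1. The PEA3 factors are controlled at the level of their own amounts: the repressor capicua (Cic), which ERK inactivates, binds octamers at the Etv1, Etv4 and Etv5 genes, and the ubiquitin ligase of Cop1 and Det1 degrades the proteins. Elf3 and Ehf are ETS factors of epithelia.

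The library totals were 30680091 to 36385719 normalized counts, from an estimated 29300000 to 45900000 reads, and 1 read was worth 0.775 to 1.24 normalized counts. Members of a list of ductal carcinoma markers (Krt7, Krt8, Krt18, Krt19, Cdh1, Sox9 and Muc1) were detected, but Epcam was listed at 0 in 6 of 8 libraries. The ductal markers summed to 231010 to 353420 with DMSO and to 119360 to 231500 with trametinib. The mesenchymal markers Vim, Cdh2, Zeb1 and Fn1 summed to 63202 to 108170 and to 136270 to 195430. Fn1 carried the rise of that sum (10041 to 14764 and 69309 to 145520). Cdh2 (4430 to 5875 and 7870 to 12963) and Zeb1 (1413 to 1582 and 2033 to 2524) also rose in all 4 lines, while Vim was lower in all 4 lines. In the limma fit described below, 3 of these 4 genes were called higher with and without a block for cell line (27.3% and 13.9% of all genes). With and without that block 1 and 0 were called lower (25.6% and 14.8% of all genes). The fibroblast list (7 genes) summed to 65.8 to 229 with DMSO and to 44.4 to 151 with trametinib with Lum at 0 in all 8 libraries, the leukocyte list (4 genes in the table) to 143 to 213 and to 147 to 238, the endothelial list (4 genes) to 30.9 to 54.6 and to 62.7 to 831, in which Tek was at 1.30 to 21.5 with DMSO and 13.5 to 805 with trametinib and Pecam1 at 6.50 to 15.6 and 6.95 to 14.1, and the acinar list (4 genes) to 40.3 to 252 and to 17.5 to 125 with Cpa1 at 0. In bulk RNA, fewer cells of a type and less RNA per cell cannot be told apart, and the part of these shifts in the values of the ETS genes was not tested.

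Etv5 lies on the minus strand of chromosome 16 (22381309 to 22439719, GRCm38 with GENCODE M21), Etv4 on the minus strand of chromosome 11 (101769742 to 101785371) and Etv1 on the plus strand of chromosome 12 (38779380 to 38870484). Promoter windows of RefSeq (GRCm38.p6, 250 bases before to 50 bases after a start) were given for 7 of the 10 genes, Elf3, Elk1, Elk3, Elk4, Ets2, Etv1 and Etv5, in 11 windows, and Etv4, Ets1 and Ehf had none. The windows were searched on both strands for the octamers bound by capicua, spelled TGAATGAA, TGAATGAG, TGAATGGA, TGAATGGG, TCAATGAA, TCAATGAG, TCAATGGA and TCAATGGG. Of these 11 windows 1 held any, a window of Etv5 at chr16:22438319-22438618 that overlaps no Etv5 exon of GENCODE M21 and lies within the gene. It is shown because it carries 3 octamers, in capitals, at positions 9 and 53 in the forward sense and at position 120 as the reverse complement, counted from the 5′ end of the window. Neither of the windows of Etv1 held an octamer.
Etv5: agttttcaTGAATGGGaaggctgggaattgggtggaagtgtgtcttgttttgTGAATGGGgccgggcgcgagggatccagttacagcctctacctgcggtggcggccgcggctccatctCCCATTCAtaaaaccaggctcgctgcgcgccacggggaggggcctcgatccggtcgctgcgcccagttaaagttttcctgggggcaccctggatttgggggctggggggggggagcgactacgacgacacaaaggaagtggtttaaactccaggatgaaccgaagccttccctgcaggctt

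Among 32817 RefSeq windows of the same length, 2305 (7.02%) held at least 1 of these octamers and 26 (0.0792%) held 3 or more. The 3 matches in the Etv5 window overlap neither each other nor another motif searched. The ETS word CCGGAAGT was found in a single window of the members, of Elk4 (3.89% of all windows), and the AP-1 word TGACTCA and the CArG box of SRF in none of the 11 (5.20% and 1.63% of all windows). A match of letters is a description of the sequence, not of binding, and a window without a match says only that these letters are not in it.

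The comparison asks which of these factors change in RNA level when MEK is inhibited. Etv4 and Etv5 were lower with trametinib in every line, by 26.3-fold to 175-fold and by 16.6-fold to 90.3-fold, while Etv1, the remaining gene of the PEA3 group, was at 8.32 to 22.6 normalized counts in all 8 libraries. The ternary complex factors split, with Elk1 higher, Elk4 slightly lower and Elk3 short of the threshold. Ets1 rose by 1.00 on the log2 scale and Ets2 by 0.26, Elf3 fell and Ehf did not pass the test. In the limma fit on log2(normalized count + 1), blocked by cell line and called at an adjusted p under 0.05, 3 of the 10 genes were called higher and 4 lower, where 27.3% of the 15888 genes tested were called higher and 25.6% lower. Without the block the calls were 0 higher and 2 lower (Etv4 and Etv5), where 13.9% and 14.8% of genes were called, and at an unadjusted p under 0.05 limma then gave 2 higher (Elk1 and Ets1) and 3 lower (Etv4, Etv5 and Elf3), where 20.6% and 20.3% of all genes were. The counts of calls among the members lie close to these background shares and are no result about the members. By the size of the fall Etv4 ranked 5 and Etv5 ranked 13 among the 15888 genes tested.

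**Figure D1:**
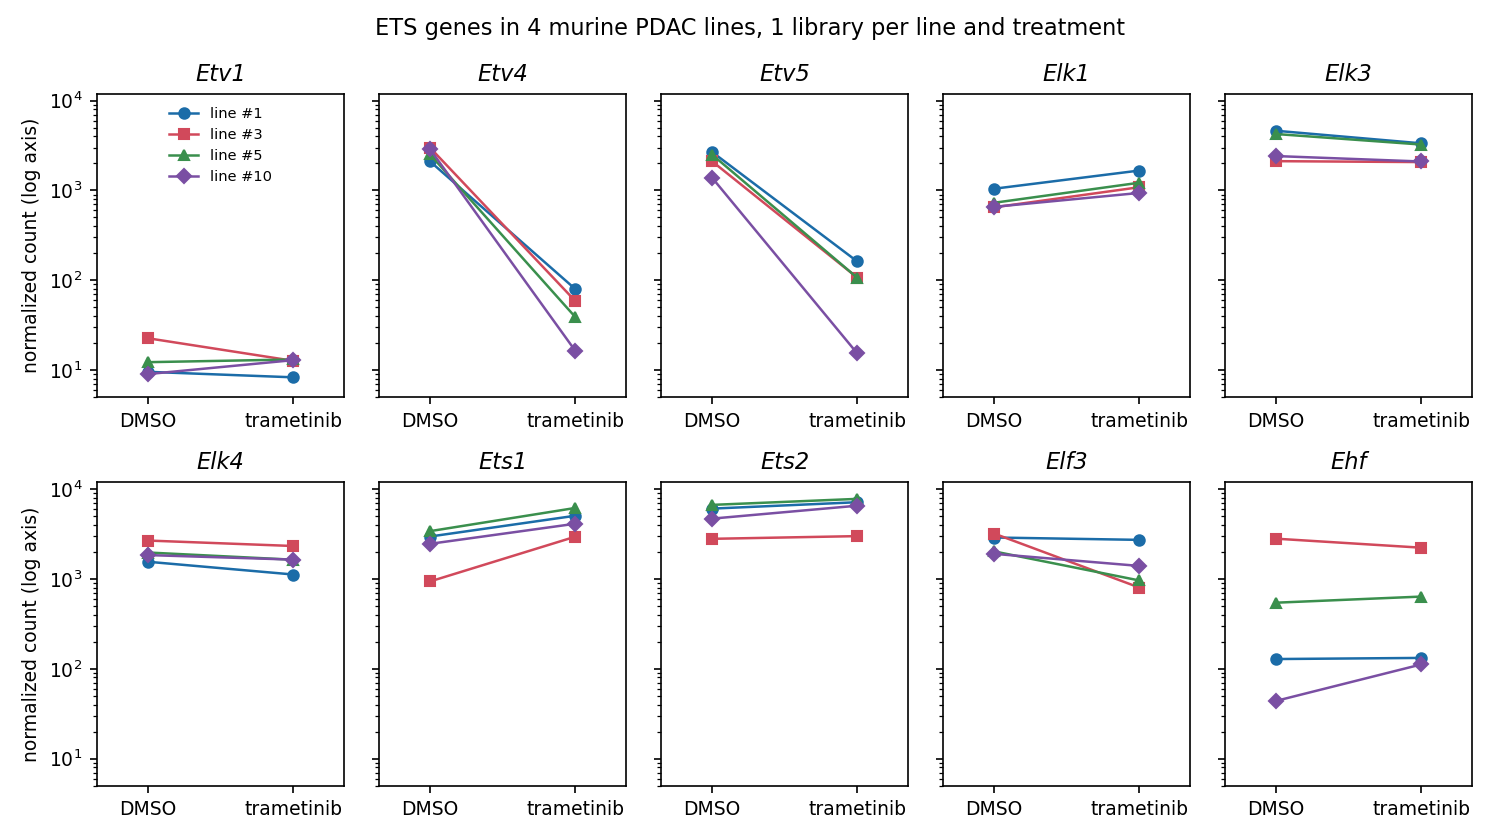
Normalized count (log axis) of each of the 10 ETS genes with DMSO and with trametinib, 1 point per library and 1 line of points per cell line. The treated libraries lie below all DMSO libraries for Etv4 (16.5 to 80.0 against 2106 to 2997) and Etv5 (15.4 to 162 against 1387 to 2684), and the treatments overlap for the other 8 genes.

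Etv4, an activator of matrix protease and motility genes, had DMSO levels of 2106, 2997, 2520 and 2879 normalized counts in lines #1, #3, #5 and #10. With trametinib it measured 80.0, 58.9, 39.1 and 16.5 in the same order. All 4 treated libraries lay below all 4 controls, and line #10 lay lowest with about 17.1 reads. The limma log2 fold change was -5.92 (SE 0.39, 95% interval -6.84 to -5.00, adjusted p = 0.00020), and 3.80%, 1.97%, 1.55% and 0.572% of the DMSO level was left in lines #1, #3, #5 and #10.

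Etv5, its close relative, measured 2684, 2114, 2508 and 1387 with DMSO and 162, 107, 107 and 15.4 with trametinib, in the same order of lines. The groups did not overlap, and line #10 was again the lowest after treatment, with about 16.0 reads. The limma log2 fold change was -4.82 (SE 0.38, 95% interval -5.72 to -3.92, adjusted p = 0.00032), and 6.04%, 5.07%, 4.26% and 1.11% of the DMSO level was left. The order of the lines was the same in both genes, with the smallest fall in line #1 (-4.70 for Etv4 and -4.04 for Etv5 on the log2 scale), then lines #3 and #5, and the largest in line #10 (-7.37 and -6.41).

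Etv4 made up 44.0%, 58.6%, 50.1% and 67.5% of the summed normalized counts of Etv4 and Etv5 with DMSO in lines #1, #3, #5 and #10, and 33.0%, 35.5%, 26.8% and 51.7% with trametinib. These shares are not divided by exon length (3.10 kb for Etv4 and 4.10 kb for Etv5), so they do not say which gene was higher. The share of Etv4 was lower after treatment in each of the 4 lines, as a description without a test. Summed over the PEA3 group, 4275 to 5133 normalized counts with DMSO stood against 44.7 to 250 with trametinib.

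Etv1, the PEA3 gene known for fusions in prostate cancer and for its role in gastrointestinal stromal tumours, measured 9.57, 22.6, 12.3 and 9.04 with DMSO and 8.32, 12.7, 13.1 and 12.9 with trametinib. These values rest on about 8.51 to 21.8 reads per library and overlap between treatments. It was higher in 2 lines and lower in the other two, and the limma log2 fold change was -0.10 (SE 0.36, 95% interval -0.96 to 0.76, adjusted p = 0.83). A change within that interval was not detectable at this depth, and the falls of Etv4 and Etv5 lie outside it.

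The ternary complex factors moved in different directions. Elk1, the best studied of them, measured 1045, 649, 729 and 657 with DMSO and 1666, 1087, 1219 and 938 with trametinib in lines #1, #3, #5 and #10. It was higher after treatment in each line although the ranges of the groups overlap, and the log2 fold change by line was narrow, 0.51 to 0.74. The limma estimate was 0.67 (SE 0.095, adjusted p = 0.0017, or 0.054 without the block). Of its exon bases, 1.41% are shared with Uxt on the same strand (Elk1 is at 20933395 to 20950608 on the minus strand of chromosome X).

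Elk3 (Net), which represses in the absence of ERK signalling, measured 4617, 2118, 4247 and 2414 with DMSO and 3346, 2069, 3243 and 2100 with trametinib. It was lower in each line and missed the threshold (limma log2 fold change -0.27, 95% interval -0.51 to -0.04, adjusted p = 0.055). Elk3 passed it in 2 of 14 alternative settings, without line #3 (-0.35, adjusted p = 0.012) and with a filter at a mean of 50 (0.048). Without the block its adjusted p by limma was 0.53. Elk4 (SAP-1), at 1554, 2676, 1969 and 1844 with DMSO, measured 1121, 2327, 1637 and 1641 with trametinib. The groups overlap, each line was lower, and the limma log2 fold change was -0.28 (SE 0.091, adjusted p = 0.039). That call was lost in 8 of 14 alternative settings, among them those without line #1 (adjusted p = 0.16), line #5 (0.11) or line #10 (0.085). Exon bases are shared with Cdk17 on the opposite strand for Elk3 (6.95%) and with Gm29103 and Mfsd4a for Elk4 (2.93%). The library kit marks strand and whether the quantification used it is not given in the sources used here.

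Ets1, a factor of angiogenesis and invasion, measured 2967, 938, 3405 and 2460 with DMSO and 5052, 2952, 6167 and 4116 with trametinib. Each line rose, and line #3, the lowest before treatment, rose most, by 1.65 on the log2 scale against 0.74 to 0.86 in the other 3. The limma log2 fold change was 1.00 (SE 0.16, 95% interval 0.62 to 1.39, adjusted p = 0.0026, or 0.091 without the block). Ets2, a related substrate of ERK, measured 6066, 2797, 6675 and 4693 with DMSO and 7147, 2997, 7787 and 6538 with trametinib. It was higher in each line by a small amount, at a limma log2 fold change of 0.26 (SE 0.091, adjusted p = 0.049), a call that was lost in 7 of 14 alternative settings, among them those without line #1 (adjusted p = 0.12), line #5 (0.12) or line #10 (0.22).

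Elf3, an ETS factor of differentiated epithelium, measured 2893, 3202, 2026 and 1904 with DMSO and 2723, 803, 962 and 1396 with trametinib. The fall by line ran from -0.09 in line #1 to -1.99 in line #3 on the log2 scale, and the limma estimate was -0.90 (SE 0.29, 95% interval -1.59 to -0.21, adjusted p = 0.037), a call lost in 6 of 14 alternative settings, among them that without line #5 (adjusted p = 0.11), and the estimate was -0.54 without line #3. Of the ductal marker genes, 6 of 7 tested were called lower, where 25.6% of all genes were (median log2 fold change -0.82 against 0.07 over all genes). The other one, Cdh1, was at -0.02 (adjusted p = 0.88 by limma) and was higher in 3 lines. Without the block limma called 0 of these 7 lower, with 1 at an unadjusted p under 0.05. The part of that shift in Elf3 was not tested. Of its exon bases, 7.31% are shared with Gm26642 on the opposite strand.

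Ehf, the other epithelial factor, separated the lines far more than the treatments. It measured 128, 2807, 544 and 43.9 with DMSO in lines #1, #3, #5 and #10, a range of 63.9-fold between the lowest and the highest line, and 132, 2228, 636 and 112 with trametinib. Line #3 was highest and line #10 lowest under both treatments, and the order of the 4 lines was the same. The limma log2 fold change was 0.32 (95% interval -0.32 to 0.95, adjusted p = 0.35). In the other 9 genes the highest DMSO line lay 1.42-fold (Etv4) to 3.63-fold (Ets1) above the lowest.

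**Figure D2:**
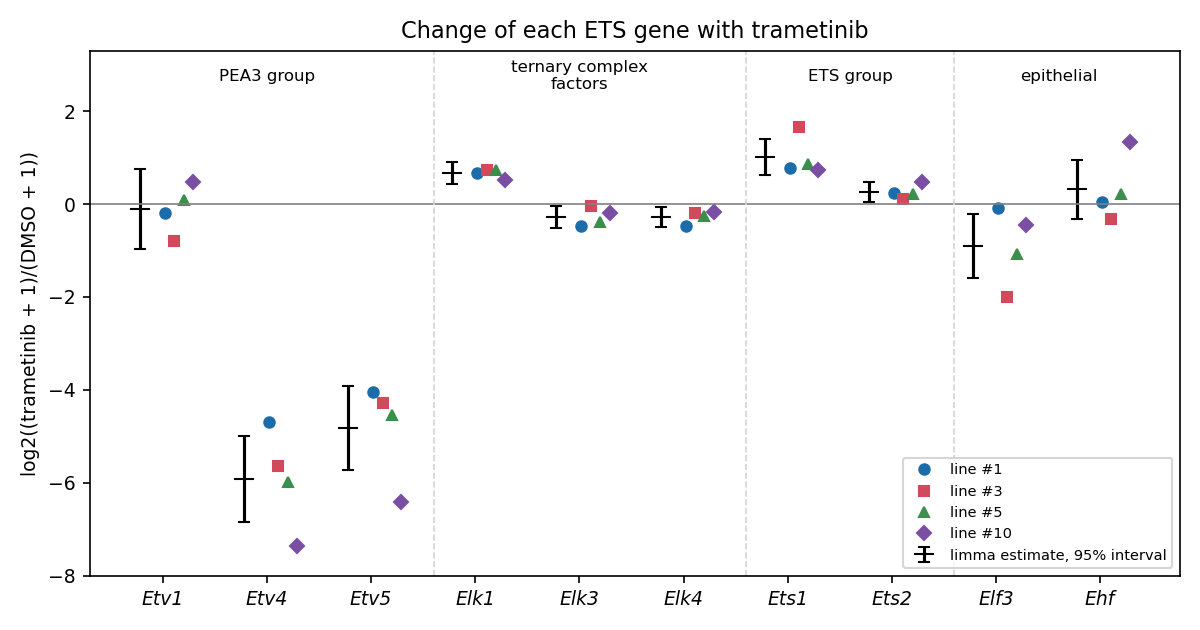
Log2 of the ratio of trametinib to DMSO after adding 1 to each normalized count, for each ETS gene and cell line (coloured points), with the limma estimate and its 95% interval (black). Etv4 lies at -4.70 to -7.37 and Etv5 at -4.04 to -6.41, and all points of the other 8 genes lie between -1.99 and 1.65.

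To compare the PEA3 group with the other members, the log2 fold changes were averaged over each group in each line. The PEA3 mean was -2.98, -3.57, -3.47 and -4.43 in lines #1, #3, #5 and #10 (-3.61 ± 0.61, SD, n = 4 lines), a mean that includes Etv1. The mean of Etv4 and Etv5 alone was -5.37 ± 1.08. The ternary complex factors averaged 0.04 ± 0.11 and the other 4 members (Ets1, Ets2, Elf3 and Ehf) 0.17 ± 0.28. Both means are small and moved with single lines, the first to 0.082 without line #1 and to -0.0036 without line #3, the latter to 0.051 without line #10 and 0.27 without line #3. The difference of the PEA3 group from the ternary complex factors was -3.65 ± 0.66 and from the other 4 members -3.78 ± 0.79, and with Etv4 and Etv5 alone it was -5.41 ± 1.11 and -5.54 ± 1.28. The differences had the same sign in each of the 4 lines and exceeded the SD over lines, and no p is given because the groups were chosen with earlier results known. The mean of the ternary complex factors combines Elk1, called higher, with Elk4, called lower, and Elk3 at -0.27, so it does not stand for genes without change.

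Levels between genes were compared per kb of exon. With DMSO the order of the means was Elf3 (1131 normalized counts per kb), Ets2 (875), Etv4 (846), Elk3 (736), Etv5 (530), Elk4 (314), Ets1 (288), Ehf (158), Elk1 (143) and Etv1 (1.01). Etv4, at 846 ± 129 (SD, n = 4 lines), did not differ beyond the spread of the lines from Ets2 above or Elk3 below it. The neighbours that differed in all 4 lines by more than the SD of their difference were Etv5 over Elk4 and Elk1 over Etv1, and the other 7 neighbouring pairs did not. With trametinib the order was Ets2 (1058), Elf3 (664), Elk3 (591), Ets1 (539), Elk4 (262), Elk1 (228), Ehf (139), Etv5 (23.8), Etv4 (15.7) and Etv1 (0.885), and Etv4 over Etv1 was the only neighbouring pair to differ in that way. Etv4 and Etv5 thus went from ranks 3 and 5 to ranks 9 and 8 of these 10 genes.

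**Figure D3:**
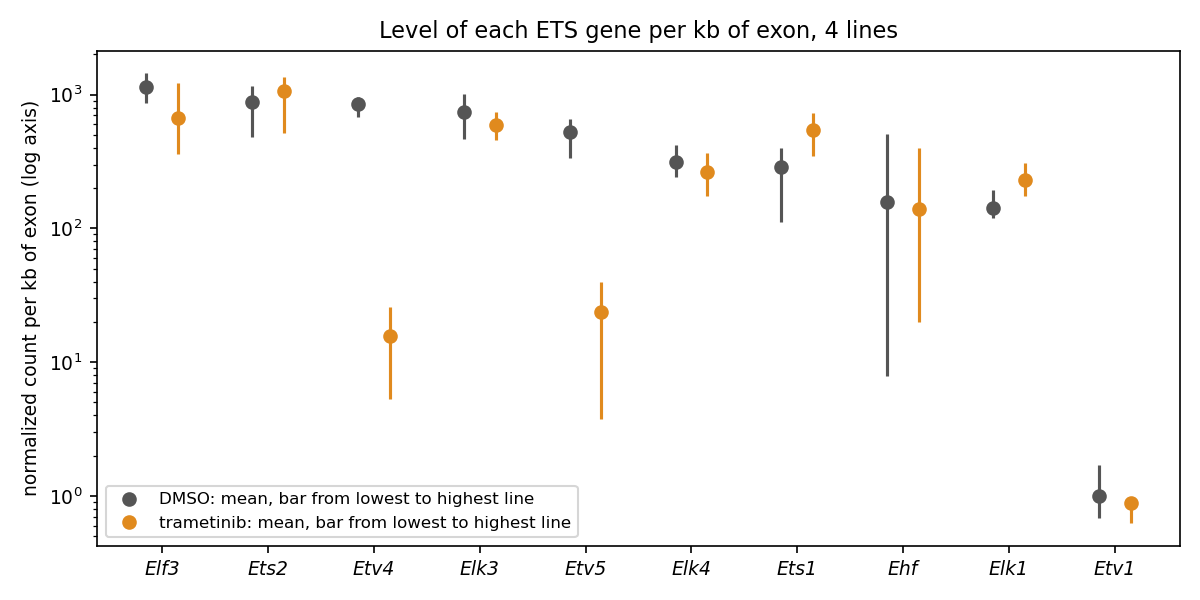
Normalized count per kb of exon (log axis) of the 10 ETS genes in order of their DMSO mean; points are means over 4 lines and bars run from the lowest to the highest line. Etv4 moves from 846 to 15.7 and Etv5 from 530 to 23.8, while the ranges of the other 8 genes overlap between treatments.

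The summed normalized count of all 10 genes kept 89.1%, 72.1%, 88.5% and 92.3% of the DMSO value in lines #1, #3, #5 and #10, against 5.22%, 3.48%, 3.16% and 1.05% for the PEA3 group. The ETS group of Ets1 and Ets2 had a sum of 135%, 159%, 138% and 149%.

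The rest of the mouse ETS family held 16 genes, of which 9 passed the filter. Elf5 and Spib are among these 9 and passed it only through the treated libraries. Of the other 7, 3 were called higher and 1 lower, where 27.3% and 25.6% of all genes were, and nothing is read from these counts. Gabpa, the DNA-binding subunit of GABP and a housekeeping ETS factor, was at 4427, 2622, 4103 and 4170 with DMSO and 2686, 1644, 2428 and 2667 with trametinib. It fell in all 4 lines (limma log2 fold change -0.70, SE 0.077, adjusted p = 0.00074, and 0.042 without the block). Those called higher were Etv6 (0.55, adjusted p = 0.012), Elf1 (0.49, adjusted p = 0.0036) and Etv3 (0.25, adjusted p = 0.042 by limma), and all 3 calls were lost without the block (adjusted p = 0.10, 0.064 and 0.15). Erg was listed at 0 in all 8 libraries, and Fli1, Fev, Spic, Spi1, Spdef and Etv2 were below the filter.

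The genes that control PEA3 amounts (11 symbols listed, 10 found, Cop1 under the symbol Rfwd2) all passed the filter, with 1 higher and 3 lower, where 27.3% and 25.6% of all genes were called, and a median log2 fold change of -0.0013 against 0.07. The count of lower calls is close to that background and is no result about the list. Cic itself was at 6417, 6339, 6068 and 5173 with DMSO and 7201, 6356, 7665 and 6241 with trametinib, higher in each line and short of the threshold (limma log2 fold change 0.19, adjusted p = 0.11). Atxn1, which binds capicua, rose by 1.49 (adjusted p = 0.0037 by limma, and 0.023 without the block), with all 4 treated libraries above the controls (1120 to 1507 against 193 to 785). Trib1, an adaptor of Cop1, fell (-0.85, adjusted p = 0.0011), Det1, a subunit of the ligase, fell (-0.62, adjusted p = 0.024) and its cullin Cul4a fell (-0.26, adjusted p = 0.027, all by limma). These 3 calls were lost without the block (adjusted p = 0.068, 0.086 and 0.21).

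Of the partners of the ternary complex factors, 4 were in the table and all passed the filter. Srf had no call (limma log2 fold change -0.15, adjusted p = 0.44), while its coactivators Mkl2 (0.79, adjusted p = 0.00072, and 0.040 without the block) and Mkl1 (0.61, adjusted p = 0.033, and 0.063 without the block) were called higher. Myocd, at 4.40 to 7.11 with DMSO and 6.83 to 40.9 with trametinib, passed the filter only through the treated libraries, so its limma estimate is no support for a rise, and of the other 3 partners 2 were called higher (27.3% of all genes). The immediate early targets of SRF and ternary complex factors numbered 8, of which 7 were tested. Of the 6 other than Egr3, 2 were higher and 4 lower (27.3% and 25.6% of all genes). Egr3 passed the filter only through the DMSO libraries (9.35 to 43.9 against 0.843 to 9.71 with trametinib), 2 treated libraries lie under the floor of 3 reads, and no fold is given for it. Egr1 had the largest fall (log2 fold change -4.64, adjusted p = 9.4e-05 by limma), and Fos was at -1.89 (adjusted p = 0.0010). Junb (0.41) and Mcl1 (0.29) were called higher, and both calls were lost without the block (adjusted p = 0.58 and 0.26).

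A known MAPK activity score holds Etv4 and Etv5 themselves, and of its 8 other genes, all tested, 7 were lower by limma, with and without the block, where 25.6% and 14.8% of all genes were (median log2 fold change -1.74), and the other one, the receptor Epha4, was at 0.87 with an adjusted p of 0.0504. The largest falls were those of the ERK feedback genes Spry4 (-3.61), Dusp6 (-2.51) and Spry2 (-2.05). The limma estimates for Etv4 (-5.92) and Etv5 (-4.82) lie below all of these. Of 7 target genes with ETS and AP-1 sites 5 were tested, among them Mmp3, which passed the filter only through the DMSO libraries. Of the other 4, 1 was called higher and 1 lower (27.3% and 25.6% of all genes): the membrane protease Mmp14 was called higher (2.09, adjusted p = 0.00095) and the urokinase receptor Plaur lower (-0.60, adjusted p = 0.0013 by limma, a call lost without the block at 0.18).

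**Figure D4:**
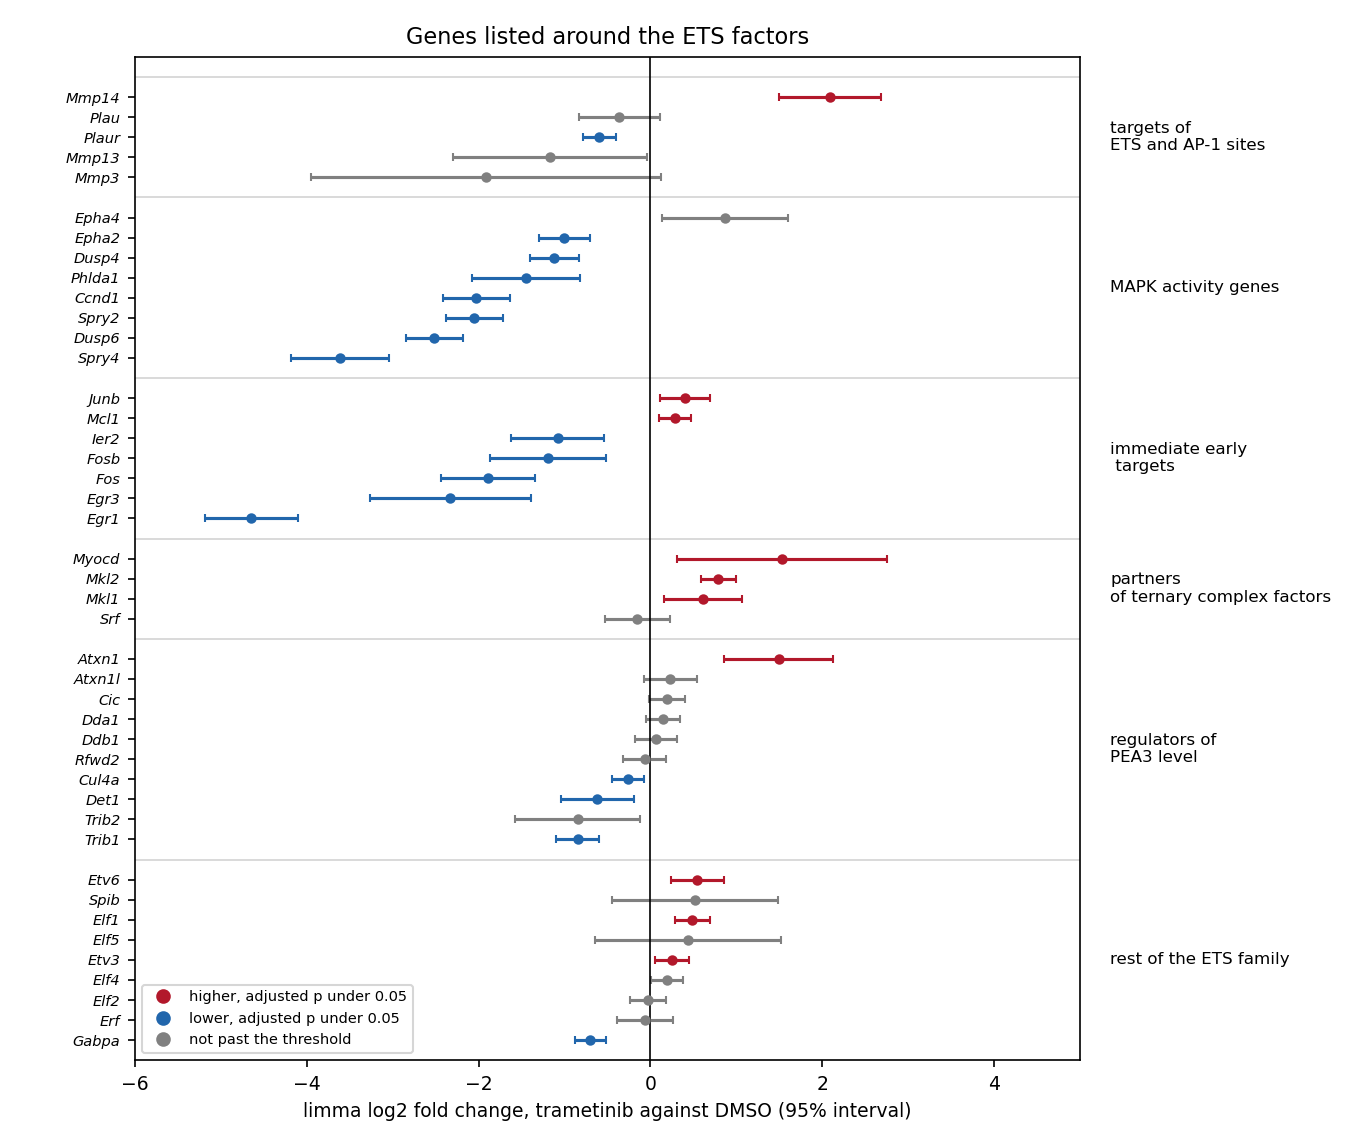
Limma log2 fold change with its 95% interval for the tested genes of 6 lists around the ETS factors, coloured by call at an adjusted p of 0.05. The immediate early genes and MAPK activity genes lie mostly below 0, down to -4.64 for Egr1, and among the partners of the ternary complex factors Mkl1 and Mkl2 lie above 0 and Srf at -0.15; Myocd, Egr3, Mmp3, Elf5 and Spib passed the filter only through 1 treatment.

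The genes whose pattern over the 8 libraries was most like that of each PEA3 gene were named by Pearson's r of log2(normalized count + 1) as a description. For Etv4 they were Enoph1 (r = 0.989), Creb1 (0.986) and Itga6 (0.985), for Etv5 9930012K11Rik (0.992), Ankrd28 (0.982) and Tmed1 (0.980), and for Etv1 Zfp871 (0.918), Akap7 (0.907) and Ugt1a5 (0.903). Etv4 and Etv5 had an r of 0.974 with each other, while Etv1 had 0.092 with Etv4 and 0.056 with Etv5. These 8 points share 4 cell lines and 2 treatments, so an r near 1 is shared by many genes that differ between treatments.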

How the data were processed

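RNA was measured in 8 libraries, from 4 primary murine PDAC lines with DMSO or trametinib. A further allele of the mouse model is not reported here. The labels state TruSeq Stranded mRNA libraries, and the submitters' processing notes name CASAVA 2.17, Salmon 0.12, DESeq2 1.18 and the build mm10, with no role given for each. The deposited values are a signal, gene-level counts that the authors normalized between libraries, and are not whole reads. Whole reads could not be recovered, so no count test was run. Depth was read from the step between low values, and the floor of 3 reads corresponds to 2.33 to 3.72 normalized counts.

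The base was log2(value + 1). Genes with a mean of at least 10 were fitted with limma 3.58.1 in R 4.3.3 (lmFit and trended eBayes), blocked by cell line, and p-values were adjusted by Benjamini-Hochberg over all 15888 genes tested, at a threshold of 0.05. Log2 fold changes are on the log2(value + 1) scale and understate the change of low genes. Folds and percentages of the DMSO level are plain ratios of normalized counts. The pairing comes from the labels, in which both libraries of a line carry its number, and the deviations of same-numbered libraries from their group means had r = 0.64, 0.65, 0.63 and 0.72 in lines #1, #3, #5 and #10. The fit was tested on simulated data. Group means, sums and shares were computed per line without a test, and sums and shares were not divided by exon length. Other levels between genes were divided by the exon length of GENCODE M21 (GRCm38).

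The members, the gene lists around them and the tests were chosen with earlier results of these data known. The genes named with values are the 10 members, in each other list at most the 3 largest rises and the 3 largest falls among genes called, and for each PEA3 gene the 3 genes with the highest r. Outside this rule, Cic, Srf, Epha4, Mmp3 and the lowly expressed family members were named after their values were seen. So were the markers Cdh1, Epcam, Pecam1, Lum and Cpa1. The ductal markers were named in full, without values for most of them. Alternatives were pseudocounts of 0.1 and 5, equal totals, quantile normalization, centring on the median, no filter, a filter at 50, no block, eBayes without trend or with robust estimation, and leaving out each line. Promoter windows were those of RefSeq. Plots used matplotlib 3.10.9 and tables pandas 2.3.3 and numpy 2.4.6 under Python 3.11.15.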

Additional observations from a re-analysis of the deposited data

Results flagged for a closer look

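In 57 groups of 4 values (libraries of a treatment, or fold changes by line, for the ETS family), Dixon's test at 95% picked out 4 values, where chance gives about 1 in 20 groups, or 2.85. Etv1 with trametinib was 8.32 normalized counts in line #1 against 12.7 to 13.1 in the other 3 lines, a gap of few reads. The log2 fold change of Ets1 was 1.65 in line #3 against 0.74 to 0.86 in the other 3. Elf1 with trametinib was 1654 in line #10 against 2327 to 2452, and Etv6 with trametinib was 3530 in line #5 against 2162 to 2275.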

How the results depend on the processing

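Etv4 and Etv5 were called lower in all 14 alternative settings (log2 fold changes -6.33 to -5.44 and -5.08 to -4.29, adjusted p up to 0.0032 and 0.0038 by limma). The count of members called lower was 2 in place of 4 with equal totals, quantile normalization, no filter, no replicate block and eBayes without trend. It was 5 with the filter at 50, and 2 to 5 when 1 line was left out. The count called higher was 0 in place of 3 with no replicate block. It was 2 with centring on the median, no filter and eBayes without trend, and 2 to 3 when 1 line was left out. With the filter at 50 Etv1 is not tested, and the PEA3 mean was -5.37, its difference from the ternary complex factors -5.41 and from the other 4 members -5.54. Equal totals moved the median over all genes from 0.07 to 0.20 and the calls from 4341 higher and 4075 lower to 5315 and 3284, and gave 0.17 for the mean of the ternary complex factors, which was -0.019 with centring on the median. The sign turned, with no call in either case, for Etv1 (0.016 with equal totals, -0.29 to 0.13 when 1 line was left out) and Ehf (-0.022 to 0.53). Leaving out the block leaves each estimate as it is by construction and changes its error alone. With 13.9% of all genes then called higher and 14.8% lower, the calls higher and lower went from 3 and 1 to 0 and 1 in the rest of the ETS family, from 1 and 3 to 1 and 0 in the regulators of PEA3 amounts, from 2 and 0 to 1 and 0 in the partners of ternary complex factors without Myocd, from 2 and 4 to 0 and 3 in the immediate early genes without Egr3, from 1 and 1 to 1 and 0 in the targets of ETS and AP-1 sites, and from 0 and 6 to 0 and 0 in the ductal markers. The causes were not tested. Depth limits Etv1 and the treated Etv4 and Etv5 in line #10, each at about 8.51 to 21.8 reads.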
